A study of Mus musculus with 6 samples.

Results

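The 34 genes described here mark the endothelium, the cell layer that lines blood and lymphatic vessels, in the newborn mouse skull roof. They were chosen by name, as genes of blood and lymphatic endothelial cells, out of 24346 gene names in the deposited tables, and all 34 names were found. The tissue was calvaria taken from newborn mice, with the interparietal and occipital bones included and the cartilage of the ears left out. The control group was 3 libraries of genotype Pth1rfl/fl, and the compared group was 3 libraries labelled mutant, of genotype Prx1-Cre;Pth1rfl/fl. Both groups therefore carried floxed alleles of Pth1r, the receptor gene for parathyroid hormone and its related protein, and only the labelled mutants carried the Cre transgene. Prx1-Cre is known as a driver of recombination in mesenchyme of the limbs and skull, and which cells recombined in this tissue is not given in the sources used here. The labels do not say whether each library came from a separate animal, so p-values measure only the spread between these libraries.

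Endothelial cells are joined by adhesion proteins such as VE-cadherin and claudin-5, and their growth and stability are governed by receptors for VEGF, angiopoietins, apelin and sphingosine-1-phosphate. Capillaries in bone are lined by endothelium that carries endomucin and is permeable, arteries carry more nitric oxide synthase and SOX17, and lymphatic vessels are specified by PROX1 and grow through VEGFR3. In the flat bones of the skull, vessels enter with the bone-forming front and lie beside osteoclasts and osteoblasts. Several of these genes are also used by other cells: CD34 by fibroblasts and blood progenitors, von Willebrand factor by platelets, LYVE1 by some macrophages, and podoplanin by osteocytes.

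The value of the targeted gene was higher, not lower, in the libraries labelled mutant, without passing the threshold. Pth1r had 89.2, 93.3 and 102 FPKM in controls against 127, 125 and 142 in the labelled mutants (adjusted p = 0.065 in limma). Every direction given here therefore rests on the labels and not on the targeted gene. FPKM counts fragments per kilobase of transcript scaled to the number of mapped fragments, and levels of different genes can be compared on it. No read totals were stated in the sources used here, and depth is unknown. The tissue was rich in bone transcripts, with Col1a1, the main collagen of bone, between 9430 and 13100 FPKM in each library, and it also held muscle, with Acta1 between 3990 and 7810 FPKM. By the levels of Xist and Y-linked genes, 1 of the 3 controls and 2 of the 3 libraries labelled mutant were male.

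Endothelial genes were well represented in every library. The highest was Cd34, a surface sialomucin, at 114 ± 3.84 FPKM in controls and 110 ± 4.4 in the libraries labelled mutant (SD, n = 3 each). Cdh5, which encodes VE-cadherin of endothelial junctions, came next, with a mean level over the 6 libraries that exceeded 95.7% of all names. Pecam1, the adhesion gene most used to mark vessels, exceeded 94.3%. The lowest 2 were Apln, the gene of the peptide apelin, at 3.99 ± 0.671 FPKM in controls (SD, n = 3), and Prox1, the transcription factor gene of lymphatic identity. Prox1 had 0.172, 0.282 and 0.188 FPKM in controls against 0.204, 0.612 and 0.169 in the libraries labelled mutant, and was the 1 member below the mean of 1 FPKM required for the test. The within-group spread of the 33 tested members was small, with a median coefficient of variation of 7.57% in controls and 5.85% in the libraries labelled mutant. Of the 33 neighbouring pairs in the order of mean levels, 22 had overlapping ranges over the 3 controls. Cd34 over Cdh5, Pecam1 over Plvap and Apln over Prox1 were among the 11 pairs whose ranges were apart.

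**Figure D1:**
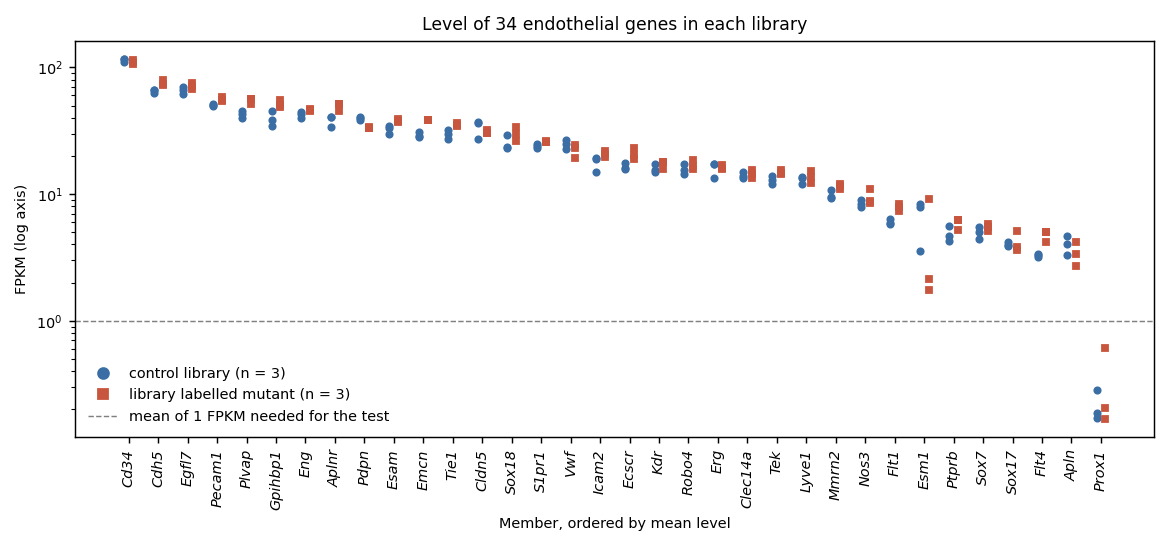
FPKM of the 34 members in each library on a log axis, ordered by mean level, with controls as circles and libraries labelled mutant as squares. Levels run from Cd34 above 100 FPKM in every library to Prox1 below the dashed line at 1 FPKM, and Esm1 shows the widest scatter within groups.

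Emcn was the only member that passed the threshold. It encodes endomucin, a sialomucin on the surface of capillary and venous endothelium, and lies at positions 137341067 to 137432185 of chromosome 3 on the plus strand of GRCm38. Its value was 28.4, 31.0 and 28.8 FPKM in controls against 38.4, 38.1 and 38.5 in the libraries labelled mutant. The groups did not overlap, and the SD of the libraries labelled mutant was 0.224 FPKM. Emcn rose 1.30-fold, a log2 change of 0.37 ± 0.06 (SE; 95% interval 0.24 to 0.51; adjusted p = 0.0476 in limma). This was 1 of 33 tested members, or 3.03%, where 0.524% of all 13180 tested genes were called higher. An exact permutation test of its means, two-sided, gave p = 0.1, the smallest that 3 values against 3 allow. The call was marginal: leaving out any 1 of the 6 libraries ended it, with adjusted p from 0.0674 to 0.192, while the log2 change stayed between 0.35 and 0.41. A sex term also ended it (adjusted p = 0.118), as did median-of-ratios scaling (0.0504), no filter on low values (0.0571) and a variance model without trend (0.0799).

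In bulk tissue, fewer cells of a type and less RNA per cell cannot be told apart, and neither can their opposites, so a higher level is not a count of endothelial cells. No member was called lower in limma, where 0.0835% of all tested genes were, and 1 member, Pdpn, was lower at an unadjusted p under 0.05, or 3.03%, where 4.62% of all genes were. The direction of the members was nevertheless uneven: 27 of 33 had a higher mean log2 value in the libraries labelled mutant and 6 a lower one, where 50.5% of all tested genes had a higher one. In 16 members, or 48.5%, every library labelled mutant lay above every control, where 9.34% of all tested genes did, and in 1 member every one lay below, where 6.79% did. The median log2 change was 0.15 over the members and 0.00 over all tested genes. At an unadjusted p under 0.05, 13 members were higher, or 39.4%, against 5.91% of all genes. The members share a cell type and vary together, so these counts are not independent of each other.

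**Figure D2:**
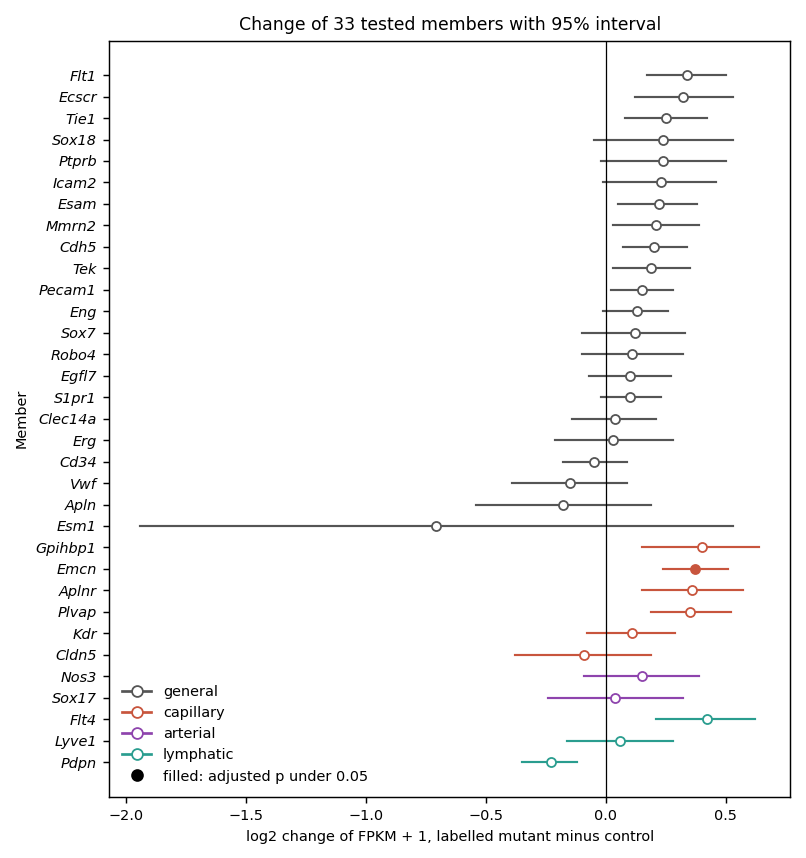
Log2 change of FPKM + 1, labelled mutant minus control, for the 33 tested members with 95% intervals, coloured by vessel type, with a filled point where the adjusted p was under 0.05. Emcn has the filled point, and capillary members sit mostly between 0.35 and 0.40 with Kdr and Cldn5 nearer 0.

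The upstream sequences of 3 members are shown because they hold the letters searched for as motifs of endothelial transcription factors and because Emcn carried the 1 call. Each line gives the 250 bases before the RefSeq start site on GRCm38.p6, 5′ to 3′ on the gene's strand, with the motif in capitals. They are chr3:137340828-137341077 on the plus strand for Emcn, chr4:94739039-94739288 on the plus strand for Tek and chr5:147726012-147726261 on the minus strand for Flt1.
Emcn: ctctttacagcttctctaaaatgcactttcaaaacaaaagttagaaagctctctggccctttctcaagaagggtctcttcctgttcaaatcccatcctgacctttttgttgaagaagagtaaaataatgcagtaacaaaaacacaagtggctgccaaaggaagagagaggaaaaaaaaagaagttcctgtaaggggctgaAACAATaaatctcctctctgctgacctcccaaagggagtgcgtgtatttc
Tek: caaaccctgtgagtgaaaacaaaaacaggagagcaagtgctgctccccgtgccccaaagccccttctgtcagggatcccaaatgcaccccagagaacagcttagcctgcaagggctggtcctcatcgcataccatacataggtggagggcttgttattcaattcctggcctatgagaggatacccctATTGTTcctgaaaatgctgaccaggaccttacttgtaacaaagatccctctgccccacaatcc
Flt1: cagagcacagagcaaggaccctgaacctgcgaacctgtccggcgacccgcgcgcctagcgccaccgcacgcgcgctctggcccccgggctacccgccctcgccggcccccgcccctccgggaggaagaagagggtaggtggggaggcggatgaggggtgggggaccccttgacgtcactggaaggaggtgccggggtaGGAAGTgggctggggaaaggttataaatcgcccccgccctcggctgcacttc
The SOX-type motif AACAAT, read on both strands, begins 50 bases before the Emcn start site and 63 bases before that of Tek. The ETS-type motif GGAAGT, which ERG and related factors are known to bind, begins 52 bases before the Flt1 start site. RefSeq promoters were found for 17 of the 34 members, 22 windows in all. GGAAGT was in 6 of these windows, or 27.3%, and in 19.7% of all 32851 promoter windows of that length, and the 5 genes that hold it were Egfl7, Eng, Flt1, Kdr and Tie1. AACAAT was in 3 windows, or 13.6%, and in 9.42% of all windows, and the 3 genes were Emcn, Erg and Tek. These motifs do not overlap each other, and a match describes letters only.

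Of the 6 capillary genes, 4 had ratios between 1.28 and 1.32. Besides Emcn they comprised Plvap, Gpihbp1, Aplnr, Kdr and Cldn5, and the same 4, Emcn, Plvap, Gpihbp1 and Aplnr, had groups that did not overlap. This separation was not limited to capillary genes. Of the 22 members assigned to no single vessel type, 11 also had every library labelled mutant above every control, where 9.34% of all tested genes did. Whether capillary genes differed from those 22 in their change was not tested. Plvap, whose protein forms the diaphragms of fenestrated capillaries, had 40.1, 45.5 and 42.9 FPKM in controls against 56.7, 51.4 and 56.7 in the libraries labelled mutant. Every value of the latter was above every control, at a ratio of 1.28 and a log2 change of 0.35 ± 0.07 (SE), without passing in limma (adjusted p = 0.107). Plvap overlaps Gtpbp3 on the other strand, and whether fragments were counted by strand is not given in the sources used here. Gpihbp1, which carries lipoprotein lipase across the capillary wall, had 44.9, 38.5 and 34.2 FPKM in controls against 50.9, 55.1 and 49 in the libraries labelled mutant, a ratio of 1.32 (adjusted p = 0.213 in limma). Its controls were the more scattered, yet all 3 lay below the lowest library labelled mutant.

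The other 3 capillary genes were less alike. Aplnr, the apelin receptor of sprouting and venous endothelium, had 34.1, 40.3 and 40.7 FPKM in controls against 51.5, 45.5 and 51.8 in the libraries labelled mutant (ratio 1.29, adjusted p = 0.192 in limma). Kdr, which encodes VEGFR2, the main signalling receptor for VEGF, had 15, 17.2 and 15.4 FPKM against 15.8, 17.8 and 17.8, and its groups overlapped. The 95% interval of the Kdr log2 change ran from -0.08 to 0.29. Cldn5, the claudin of tight endothelial junctions, had 36.8, 36.5 and 27.0 FPKM in controls against 30.5, 32.1 and 30.4 in the libraries labelled mutant. Control 3 was the lowest and the other controls the highest of the 6, so the groups overlapped, with an interval from -0.38 to 0.19. The summed FPKM of the 6 capillary genes was 199, 209 and 189 in controls and 244, 240 and 244 in the libraries labelled mutant.

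**Figure D3:**
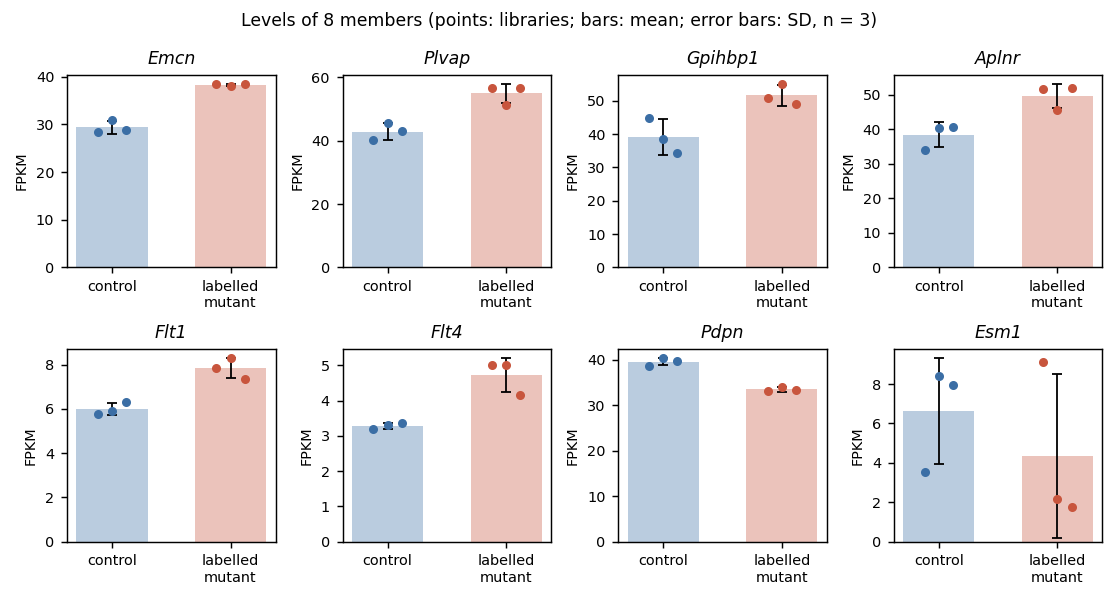
FPKM of 8 members by group on axes that start at 0, with points for libraries, bars for means and error bars for SD (n = 3). Emcn, Plvap, Gpihbp1, Aplnr, Flt1 and Flt4 have all 3 libraries labelled mutant above the controls, Pdpn has them below, and Esm1 is scattered in both groups.

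Among junction and surface genes, 7 of 9 had a higher mean log2 value in the libraries labelled mutant, and 1, Emcn, passed. At an unadjusted p under 0.05, 5 of 9 were higher, or 55.6%, where 5.91% of all tested genes were. Cdh5 had 66.3, 66.2 and 63.2 FPKM in controls against 74.2, 73.1 and 78.8 in the libraries labelled mutant, a log2 change of 0.20 ± 0.06 (SE; adjusted p = 0.232 in limma). Pecam1 had 51.1, 49.2 and 50.4 against 58.3, 55.2 and 54.1 FPKM, a smaller difference, at a ratio of 1.11. Neither gene had overlapping groups, and neither passed. Ecscr, an endothelial cell surface regulator of migration, had 15.8, 16.0 and 17.5 FPKM against 23.3, 20.3 and 19, a ratio of 1.27 (adjusted p = 0.226 in limma), and overlaps 1700066B19Rik on the other strand. The adhesion genes Esam and Icam2 had a ratio of 1.17 each, also with no overlap of groups. Cd34 and the C-type lectin gene Clec14a had ratios of 0.968 and 1.03, with overlapping groups and 95% intervals of -0.18 to 0.09 and -0.14 to 0.21 for the log2 change. The log2 change of Clec14a turned to -0.02 without library 1 labelled mutant.

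All 9 receptor genes of vessel growth and stability had a higher mean log2 value in the libraries labelled mutant, and 0 of 9 passed in limma, where 0.524% of all tested genes were called higher. At an unadjusted p under 0.05, 4 of 9 were higher, or 44.4%, against 5.91% of all tested genes. Flt1, which encodes VEGFR1, a high-affinity VEGF receptor that also exists as a soluble decoy, had 5.79, 5.89 and 6.31 FPKM in controls against 7.86, 8.28 and 7.37 in the libraries labelled mutant. The groups were well separated, at a ratio of 1.31 and a log2 change of 0.34 ± 0.07 (SE; adjusted p = 0.124 in limma). A value for the whole gene does not part the soluble from the membrane form. The angiopoietin receptor gene Tek had 12.8, 13.9 and 12 FPKM against 15.4, 14.7 and 14.4, and its partner Tie1 had 31.9, 30.0 and 27.0 against 36.4, 35 and 34.7. Both had groups that did not overlap, at ratios of 1.15 and 1.19 (adjusted p = 0.379 and 0.248 in limma). Ptprb, the phosphatase that restrains TEK, had 5.58, 4.30 and 4.68 FPKM against 6.19, 6.29 and 5.21, and its groups overlapped.

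The remaining receptors differed by little. Eng, the TGF-beta co-receptor endoglin, had a ratio of 1.09 and S1pr1, the sphingosine-1-phosphate receptor that tightens the vessel wall, a ratio of 1.08, each with groups that did not overlap. The Eng locus overlaps Fpgs on the other strand. S1pr1 had 25.9, 25.9 and 26.0 FPKM in the libraries labelled mutant and 24.1, 23.2 and 24.9 in controls. Robo4, a stabilizing receptor of endothelium, had a ratio of 1.08 with overlapping groups. The summed FPKM of the 9 receptors was 187, 193 and 189 in controls and 221, 219 and 219 in the libraries labelled mutant.

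Secreted genes showed no shared direction, with 2 of 5 higher and 3 lower in mean log2 value and 0 past the threshold in limma (1, or 20.0%, higher at an unadjusted p under 0.05, against 5.91% of all tested genes). Mmrn2, a matrix protein that binds CLEC14A, had 9.32, 10.8 and 9.41 FPKM in controls against 11.6, 11.9 and 10.9 in the libraries labelled mutant, without overlap (ratio 1.17, adjusted p = 0.382 in limma). Egfl7, the vessel matrix gene that hosts a microRNA in its introns, had a ratio of 1.07, and Vwf, the gene of the clotting factor stored in endothelium and platelets, a ratio of 0.899. Egfl7 also overlaps Agpat2 on the other strand. Apln had 3.30, 4.65 and 4.02 FPKM against 2.71, 3.36 and 4.22, while its receptor gene Aplnr had the ratio of 1.29 given above.

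Esm1 stood apart from the rest by its scatter. It encodes endocan, a proteoglycan of tip cells at the front of growing sprouts, and had 3.54, 8.42 and 7.93 FPKM in controls against 9.13, 2.15 and 1.76 in the libraries labelled mutant. The highest of the 6 values and the lowest 2 were all in the libraries labelled mutant, so the coefficient of variation there was 95.4%, the largest of any tested member. The log2 change of -0.71 had a 95% interval from -1.94 to 0.53, wide enough to hold a change in either direction. Esm1 overlaps Gzmk on the other strand.

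Of the endothelial transcription factor genes, 4 of 4 had a higher mean log2 value in the libraries labelled mutant, with 0 past the threshold in limma, 0 at an unadjusted p under 0.05, and groups that overlapped in each. Erg, an ETS factor that maintains endothelial identity, had 17.4, 17.3 and 13.4 FPKM in controls against 16.2, 15.7 and 17.1 in the libraries labelled mutant. Its 95% interval ran from -0.21 to 0.28 on the log2 scale, and the sign of its change of 0.03 turned to -0.08 without control 3, the lowest of its values. Of the SOXF genes, which act together in arterial, venous and lymphatic development, Sox18 had 23.4, 29.1 and 23.2 FPKM against 29.9, 26.2 and 34.1, a ratio of 1.19 with a 95% interval of the log2 change from -0.05 to 0.53 (adjusted p = 0.569 in limma). Sox7 had 5.52, 4.41 and 5.02 against 5.09, 5.79 and 5.53 FPKM. Sox17, the arterial member, had 4.22, 3.92 and 3.97 against 5.15, 3.81 and 3.65 FPKM, with 1 library labelled mutant above all others and 2 below. Its log2 change turned from 0.04 to -0.09 without that library, number 1.

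The other arterial gene, Nos3, which encodes the endothelial nitric oxide synthase that sets vessel tone, had 8.28, 8.92 and 7.84 FPKM in controls against 8.87, 10.9 and 8.43 in the libraries labelled mutant. Its groups overlapped (ratio 1.13, adjusted p = 0.699 in limma), and it shares its locus with Atg9b on the other strand. Whether capillary and arterial genes differed in their change was not tested.

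Lymphatic members went separate ways. Flt4, which encodes VEGFR3, the receptor that drives lymphatic growth and is also made by bone capillaries, had 3.19, 3.30 and 3.36 FPKM in controls against 5.01, 5.0 and 4.17 in the libraries labelled mutant. All 3 of the latter were above the controls, at a ratio of 1.44 and a log2 change of 0.42 ± 0.09 (SE; adjusted p = 0.124 in limma). Lyve1, the hyaluronan receptor of lymphatic endothelium and some macrophages, had 13.5, 13.7 and 11.9 against 13.6, 15.1 and 12.2 FPKM, with overlapping groups. Its log2 change of 0.06, with an interval from -0.16 to 0.28, turned to -0.0037 without control 3 and to -0.01 without library 2 labelled mutant.

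Pdpn, the gene of podoplanin, was the 1 member whose values in the libraries labelled mutant all lay below the controls. It had 38.7, 40.4 and 39.8 FPKM in controls against 33.2, 34.1 and 33.4 in the libraries labelled mutant, a ratio of 0.846 and a log2 change of -0.23 ± 0.05 (SE; 95% interval -0.35 to -0.12), and did not pass in limma (adjusted p = 0.131). The mean level of Pdpn exceeded 91.5% of names and that of Prox1 exceeded 37.8%. Pdpn is also known from young osteocytes, and Dmp1, an osteocyte gene, had 52.2, 39.6 and 51.1 FPKM in controls against 61.7, 62.0 and 73.7 in the libraries labelled mutant. Sost, a gene of mature osteocytes, had 7.67, 5.5 and 9.01 against 2.97, 5.0 and 8.36 FPKM, with overlapping groups. The osteocyte genes Phex and Mepe had ratios of 1.35 and 1.85, each with every library labelled mutant above every control. Epithelial genes that accompany Pdpn in other tissues were near 0, with Krt5 and Krt14 at most at 0.135 and 0.277 FPKM in any library. Epcam, another epithelial gene, had 2.84, 8.91 and 5.50 FPKM in controls against 0.780, 1.34 and 0.599 in the libraries labelled mutant, and its part in the Pdpn difference was not tested. The mesothelial gene Msln had a ratio of 0.926 with overlapping groups.

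Beyond the members, 10 lists of other vessel genes were described, and 0 of their genes passed the threshold over all genes in limma. Unadjusted counts are given with each, to be read against the 5.91% of all tested genes that were higher and the 4.62% that were lower at an unadjusted p under 0.05. Of the vessel ligands, 12 of 16 tested genes, or 75%, had a lower mean log2 value, where 49.5% of all tested genes did, with a median log2 change of -0.07 (2 higher and 2 lower at an unadjusted p under 0.05). Vegfa, the main VEGF ligand, singled out after its values were seen, had 38.9, 42.5 and 38.9 FPKM in controls against 35.3, 41.0 and 37.4 in the libraries labelled mutant. Pdgfb, the endothelial signal that recruits pericytes, had 12.2, 12.1 and 11.1 against 15.9, 15.5 and 14.4 FPKM (ratio 1.29, adjusted p = 0.102 in limma). Angpt2, the TEK ligand that loosens vessels for remodelling, had 15.8, 15.9 and 15.9 against 22.8, 19.7 and 19.4 FPKM (ratio 1.30, adjusted p = 0.113 in limma). Pdgfa, made mainly outside the endothelium, had 45.7, 45.1 and 35 against 30.0, 29.4 and 32.5 FPKM. Every library labelled mutant lay above every control in 2 of the 16 ligands, or 12.5% (9.34% of all tested genes), and below in 4, or 25% (6.79% of all tested genes).

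Among co-receptors and signal partners, 15 of 17 had a higher mean log2 value (median 0.10; 4 higher and 1 lower at an unadjusted p under 0.05). Plxnd1, a semaphorin receptor that guides vessels, came closest to the threshold of all the genes in these lists, at 39.3, 42.4 and 39.4 FPKM in controls against 52.4, 50.3 and 54.3 in the libraries labelled mutant (ratio 1.30, adjusted p = 0.0588 in limma). Sema6d and the integrin gene Itgav had ratios of 1.38 and 1.24 (adjusted p = 0.0936 and 0.199 in limma). Nfatc1, a transcription factor of both endocardial cells and osteoclasts, had 22, 23.6 and 23.0 against 29.0, 28.5 and 31.0 FPKM (adjusted p = 0.0667 in limma), and Ets1 and Foxc2 had ratios of 1.16 and 0.828. Nfatc1 and Itgav are genes that osteoclasts are known to use. In that list of endothelial transcription factors, 12 of 17 had a higher mean log2 value (median 0.10; 2 higher and 0 lower at an unadjusted p under 0.05).

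**Figure D4:**
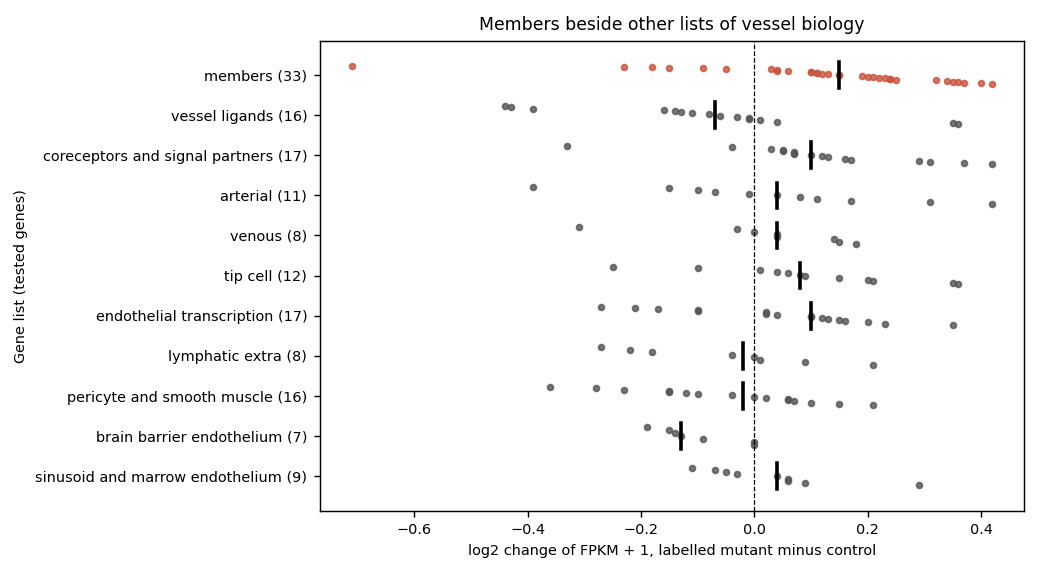
Log2 change of FPKM + 1 for the tested members and for the tested genes of 10 other vessel lists, with a black bar at each median and the number of tested genes in brackets. The member median lies at 0.15, the co-receptor and transcription factor medians at 0.10, and the brain barrier median at -0.13.

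Arterial and venous identity genes showed medians of 0.04 each. Hey1, a Notch target of arterial endothelium, had 6.28, 5.74 and 6.93 FPKM in controls against 9.41, 8.64 and 8.34 in the libraries labelled mutant (ratio 1.39, adjusted p = 0.107 in limma), and the arterial connexin gene Gja5 had a ratio of 1.31 without overlap. Mgp, made by arteries and also by cartilage, had a ratio of 0.756 with overlapping groups. In the arterial list 6 of 11 had a higher mean log2 value (2 higher and 1 lower at an unadjusted p under 0.05), and in 4 of 11, or 36.4%, every library labelled mutant lay above every control, where 9.34% of all tested genes did. In the venous list 6 of 8 had a higher mean log2 value (0 higher and 1 lower at an unadjusted p under 0.05). In 0 of these 8 did every library labelled mutant lie above every control. Nr2f1 had a ratio of 0.796, and the venule genes Ackr1 and Selp had 1.13 and 1.22. In the tip cell list, which shares Pdgfb and Angpt2 with the ligands, 10 of 12 were higher (median 0.08; 4 higher and 1 lower at an unadjusted p under 0.05), and the adhesion gene Mcam, shared with pericytes, had 40.5, 40.9 and 38.9 against 45.5, 46.2 and 47.9 FPKM.

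Genes of the vessel wall and of other endothelial beds were counted in the same way. In pericytes and smooth muscle, the cells that wrap the endothelium, 7 of 16 had a higher mean log2 value and 9 a lower one (median -0.02; 2 higher and 2 lower at an unadjusted p under 0.05). The contractile genes Acta2 and Tagln had 75.1, 70.9 and 83.0 against 62.6, 64.1 and 67.3 FPKM, and 69.2, 78.6 and 72.0 against 60.0, 56.1 and 64.9 FPKM, both with groups that did not overlap (adjusted p = 0.279 and 0.237 in limma). In the brain barrier list, 6 of 7 tested genes had a lower mean log2 value (median -0.13, with 0 in either direction at an unadjusted p under 0.05). Abcb1a, Slc7a5 and Itm2a had ratios of 0.819, 0.911 and 0.939. Itm2a had a mean of 551 FPKM over the 6 libraries, above that of Cd34, the highest member. The defining transporter Mfsd2a had at most 1.07 FPKM in any library. Mfsd2a, Slco1c1, Slco1a4 and Foxq1 were below the mean of 1 FPKM required for the test. These counts are therefore not a measure of brain vessels. The additional lymphatic genes had 4 of 8 higher (median -0.02; 0 higher and 1 lower), with Gja1, Foxc2 and Mmrn1 at 0.882, 0.828 and 1.30. The sinusoid and marrow list had 5 of 9 higher (median 0.04; 1 higher and 0 lower), with Kitl, Tfpi and Jam2 at ratios of 1.27, 0.924 and 0.944.

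Members were also compared with 3 of the members themselves, a comparison chosen after the data were seen. Each log2(FPKM + 1) value was set against the mean of 3 widely shared endothelial genes, Pecam1, Cdh5 and Tie1, in the same library (a reference gene was left out of its own reference). That reference was 0.20 higher in the libraries labelled mutant. All 3 reference genes had every library labelled mutant above every control, whereas Cd34, Egfl7, Clec14a and Erg had overlapping groups. The relative values below therefore depend on the choice of reference. Relative to it, Emcn and Plvap had every library labelled mutant above every control, with differences of 0.17 and 0.15, as 1.48% of all tested genes did. Because the reference itself was higher in these libraries, subtracting it lowers that share, which was 9.34% without a reference. The share below, 6.79% without a reference, is raised in the same way. Neither share is therefore a measure of an excess in Emcn and Plvap. Cd34, Clec14a, S1pr1, Egfl7, Vwf and Pdpn had every one below, where 45.8% of all tested genes did, and Pdpn and Vwf differed the most of these, by -0.44 and -0.35. The other 25 of 33 members overlapped, among them Flt1, Tek, Esam and Mmrn2, at 0.13, -0.01, 0.02 and 0.01. No test was run on these differences.

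Markers of other cells moved with the labels as well. Osteoclast markers were higher in 8 of 8 genes, with 7 called higher (Acp5, Ctsk, Mmp9, Ocstamp, Dcstamp, Oscar and Atp6v0d2). Their summed FPKM was 586 to 657 in controls against 1610 to 1750 in the libraries labelled mutant, Ctsk and Acp5 being the most abundant. Chondrocyte markers had 7 of 8 lower, with Matn1 and Col9a3 called lower. Col2a1 and Col9a2, the most abundant of them, had ratios of 0.244 and 0.27 without overlap (adjusted p = 0.0638 and 0.0614 in limma). The chondrocyte markers summed to between 830 and 1820 FPKM against 334 to 467. Control 3, without which the signs of Erg and Lyve1 turned, had the 830 FPKM, while the other controls had 1820 each. In the bone-forming list, led by Col1a1 and Ibsp, 8 of 9 tested were higher and Ibsp was called higher, and its sum ran from 10800 to 12300 against 11400 to 15700 FPKM. Fibroblast markers, led by Dcn and Lum, overlapped (935 to 1100 against 875 to 1040 FPKM), with 0 of 7 called in limma and 0 higher and 1 lower at an unadjusted p under 0.05. Leaving out any 1 of 5 libraries ended the calls of Ibsp (all but library 2 labelled mutant) and of Matn1 and Col9a3 (all but control 3), and leaving out library 1 labelled mutant ended those of Ocstamp and Oscar (adjusted p = 0.0514 and 0.0556 in limma). Without 1 library, the adjusted p in limma reached 0.128 for Ibsp, 0.0904 for Matn1 and 0.113 for Col9a3. The part of these markers in the member differences was not tested.

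Blood cells that share members of this set were also measured. In the platelet list, led by Pf4 and Itgb3, the sums were 139 to 170 FPKM against 172 to 190. Itgb3, an integrin gene that osteoclasts also use, was called higher (1 of 6 tested). Gp1bb had 7.25, 8.1 and 5.8 FPKM in controls against 4.88, 5.51 and 5.12 in the libraries labelled mutant, with no overlap. Pf4 had 128, 143 and 115 FPKM in controls against 146, 153 and 144 in the libraries labelled mutant, also with no overlap (ratio 1.15, adjusted p = 0.461 in limma). Itga2b, Ppbp and Gp9 had overlapping groups. Blood progenitor markers, led by Spi1 and Gata2, summed to between 26.0 and 34.5 against 39.3 to 46.3 FPKM, with Flt3 at most at 0.140 FPKM and 0 of 5 called in limma (2 higher at an unadjusted p under 0.05). In that list Spi1, which osteoclasts and myeloid cells also use, had a ratio of 1.81, while the progenitor genes Kit and Gata2 had ratios of 0.888 and 0.822 with overlapping groups. Ptprc had 1.32, 1.53 and 1.49 FPKM in controls against 2.81, 2.54 and 2.65 in the libraries labelled mutant, without overlap (ratio 1.85, adjusted p = 0.0572 in limma). Cd48 had a ratio of 1.34 with overlapping groups. Markers of LYVE1-positive macrophages, led by Csf1r and F13a1, summed to between 107 and 117 against 129 to 141 FPKM, with Csf1r, which osteoclast precursors also use, called higher (1 of 7 tested). Leaving out any 1 of the 6 libraries ended that call (adjusted p from 0.0667 to 0.118 in limma). The macrophage genes Mrc1, Folr2, Cd163, F13a1 and Cx3cr1 had overlapping groups. Adgre1, another macrophage gene of that list, did not overlap. It had 5.51, 6.0 and 5.9 FPKM in controls against 6.34, 7.01 and 7.3 in the libraries labelled mutant (ratio 1.19, adjusted p = 0.361 in limma). Red cell genes, led by Hba-a1 and Hbb-bs, summed to between 4850 and 6910 FPKM in controls and to 11900, 10300 and 2700 FPKM in libraries 1, 2 and 3 labelled mutant. The part of these blood transcripts in the member differences was not tested. Muscle markers, led by Acta1 and Mylpf, overlapped between groups, at 11800 to 19200 against 10100 to 17000 FPKM, with 0 of 7 called in limma and 0 at an unadjusted p under 0.05.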

How the data were processed

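Per the labels' protocols, RNA from homogenized newborn calvaria was made into stranded messenger RNA libraries. The deposited values are read as FPKM, because the file headers name no unit and the processing notes name Cufflinks. Per the submitters' processing notes, the authors used Cufflinks 2.2.1 and SAMtools 0.1.19 as well as TopHat2 2.0.13 and Bowtie2 2.2.3, on mm10. Options, annotation, strand use and depth are not given in the sources used here. The spread between libraries served as the measure of precision.

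The test covered the 13180 genes whose mean reached 1 FPKM across all 6 libraries. It used limma 3.58.1 (R 4.3.3; lmFit, eBayes with trend) on log2(FPKM + 1), with group as the 1 term, two-sided, with Benjamini-Hochberg adjustment over all tested genes and a threshold of 0.05. Log2 changes are on this log2(FPKM + 1) scale and understate the change of low genes. Ratios are of mean FPKM. Adjusted p-values in the text come from this fit. The procedure was tested on simulated data made from these 13180 genes, with recovery of 12.8% at a 1.25-fold change, 61% at 1.5-fold and 82.8% at 2-fold.

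Groups and replicate numbers came from the sample titles. Members, lists and tests were chosen with earlier results of these data known. Members past the threshold are given with full statistics. The 3 members with the smallest p in each role are described, some by a ratio or by library values only, and vessel lists were treated likewise. For other cell types the genes past the threshold and the 2 most abundant are named. Bmp9 and Hbb-bt matched no name. Coordinates and overlaps are from GENCODE M21 on GRCm38, in which 11 of 34 members overlap another gene and 10 do so on the other strand. Same-numbered libraries did not deviate together (correlations 0.0163, -0.0714 and 0.0152), so the main fit did not pair them. Correlations this near 0 cannot exclude a pairing.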

Additional observations from a re-analysis of the deposited data

How the results depend on the processing

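The number of members called higher was 1 as reported. It was 1 with a pseudocount of 0.1, a minimum mean of 5 FPKM or quantile normalization, 0 with no filter on low values, 0 with median-of-ratios scaling, 0 with eBayes without trend, 0 with a sex term, and 3 with array weights, which added Flt4 and Plvap (adjusted p = 0.0456 and 0.0355). Leaving out each library in turn gave 0 in all 6 fits. With the replicate number as a block it was 0 and Emcn had an adjusted p of 0.151, though whether equal numbers mark pairs is unknown. Members called lower were 0 in limma under all 15 alternatives. Over all genes, the 80 calls became 183 with array weights, 50 with no filter, 43 with the sex term, 25 with the replicate block and 16 to 44 without 1 library. Of the tested members, 25 to 28 had a higher mean log2 value over the alternatives, and their median change ran from 0.13 to 0.17. Of 91 tested genes followed through the alternatives, 78 kept their sign throughout. Pth1r, Phex, Mepe, Msln, Gp1bb, Itga2b, Ppbp, Gp9, Ptprc, Cd48, Adgre1, Col2a1 and Col9a2 were not among those followed. Among members the exceptions came as each library was left out: Erg ran from -0.08 to 0.09, Lyve1 from -0.01 to 0.13 with -0.0037 without control 3, and Clec14a and Sox17 from -0.02 to 0.08 and from -0.09 to 0.11, their lower ends without library 1 labelled mutant. The other 9 were genes from the lists of other cells, with leave-one-out ranges of -0.12 to 0.12 for Cd163, -0.14 to 0.03 for Cx3cr1, -0.01 to 0.25 for Folr2, -0.33 to 0.01 for Gata2, -0.11 to 0.13 for Col1a1, -0.13 to 0.94 for Hba-a1, -0.27 to 0.72 for Hbb-bs, -0.21 to 0.03 for Lum and -0.28 to 0.11 for Mylpf. Cd163 was also 0.03 with array weights and 0.02 with the sex term, and Col1a1 -0.3 with quantile normalization and -0.06 with array weights. The causes were not tested. In the vessel lists, 4 of 20 counts of calls moved from 0, all with array weights, which called Angpt2, Pdgfb, Plxnd1 and Nfatc1. Read depth is unknown, so what it limits could not be judged.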
